A study of Homo sapiens with 6 samples.

Results

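The genes described here encode enzymes, transporters and regulators that make or interconvert sphingolipids and glycerophospholipids. They were chosen by symbol: 38 symbols were looked up in a table of 60670 genes, and all 38 were found once. A mean of at least 1 TPM over all 6 libraries (TPM is a transcript level scaled by length and by the library total) was reached by 37 of them, which were tested together with all other genes at that level, 12201 in all. ACER2 fell below it. The cells were Ishikawa, an established line from a human endometrial adenocarcinoma, given either the solvent DMSO or 5 µM penfluridol, with 3 RNA-seq libraries in each group. Penfluridol, an antipsychotic of the diphenylbutylpiperidine class, is a cationic amphiphilic compound. The sources used here give no treatment time, and a single cell line was used. The labels do not say whether the 3 libraries came from separate cultures, so each p-value reflects spread among libraries that may be technical replicates.

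The cells were checked against markers. Cytokeratin KRT8, the most abundant of 10 epithelial and endometrial markers, was at 1998, 1752 and 2215 TPM in DMSO 1, 2 and 3, against 1157, 1159 and 1009 TPM in penfluridol 1, 2 and 3. The steroid receptors ESR1 and PGR were listed at 0 to 0.33 TPM in every library, so hormone receptor transcripts were absent or nearly so. Of 10 stromal, endothelial and blood cell markers only COL1A1, at 1.61 to 4.42 TPM, and HBB, at 1.86 TPM in penfluridol 3 and 0 elsewhere, exceeded 1 TPM in any library.

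Sphingolipid synthesis starts on the endoplasmic reticulum, where serine palmitoyltransferase joins serine to palmitoyl-CoA. The product is reduced, acylated and desaturated to ceramide, which is carried to the Golgi and turned into sphingomyelin or glucosylceramide. Breakdown of ceramide yields sphingosine, whose phosphate is a signalling lipid that is exported to act on cell surface receptors or cleaved irreversibly by a lyase. Phosphatidylcholine and phosphatidylethanolamine come from the Kennedy pathway, in which choline and ethanolamine are phosphorylated and activated with CTP. Phosphatidylethanolamine also comes from phosphatidylserine, which is decarboxylated inside mitochondria. Cationic amphiphilic drugs are known to collect in lysosomes and disturb lipid breakdown there.

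With penfluridol, 3 of the 37 genes tested (8.11%) were higher and none was lower at an adjusted p under 0.05 (limma on log2(TPM + 1), Benjamini-Hochberg adjustment over all genes tested). They were SPHK1, which makes sphingosine 1-phosphate, PISD, the mitochondrial phosphatidylserine decarboxylase, and GBA2, the non-lysosomal glucosylceramidase. At an unadjusted p under 0.05 there were 6, these and CHKB, PCYT2 and, in the lower direction, SPTLC2, beside 4029 of all 12201 genes. Over all genes tested 9.75% were called higher and 3.48% lower, so the number of called genes among these enzymes was near the background. The 3 penfluridol values lay above the 3 DMSO values without overlap in 7 of the 37 (CHKB, DEGS2, GBA2, PISD, PTDSS2, SMPD4 and SPHK1) and below them in 3 (CDS2, CERS6 and SPTLC2). Such separation upward was seen in 23.3% and downward in 13.6% of all genes tested. The median log2 fold change was -0.07 for the 37 genes and -0.04 for all genes tested. In bulk RNA a smaller share of expressing cells and less RNA per cell cannot be told apart, and TPM is relative to the library's total.

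**Figure D1:**
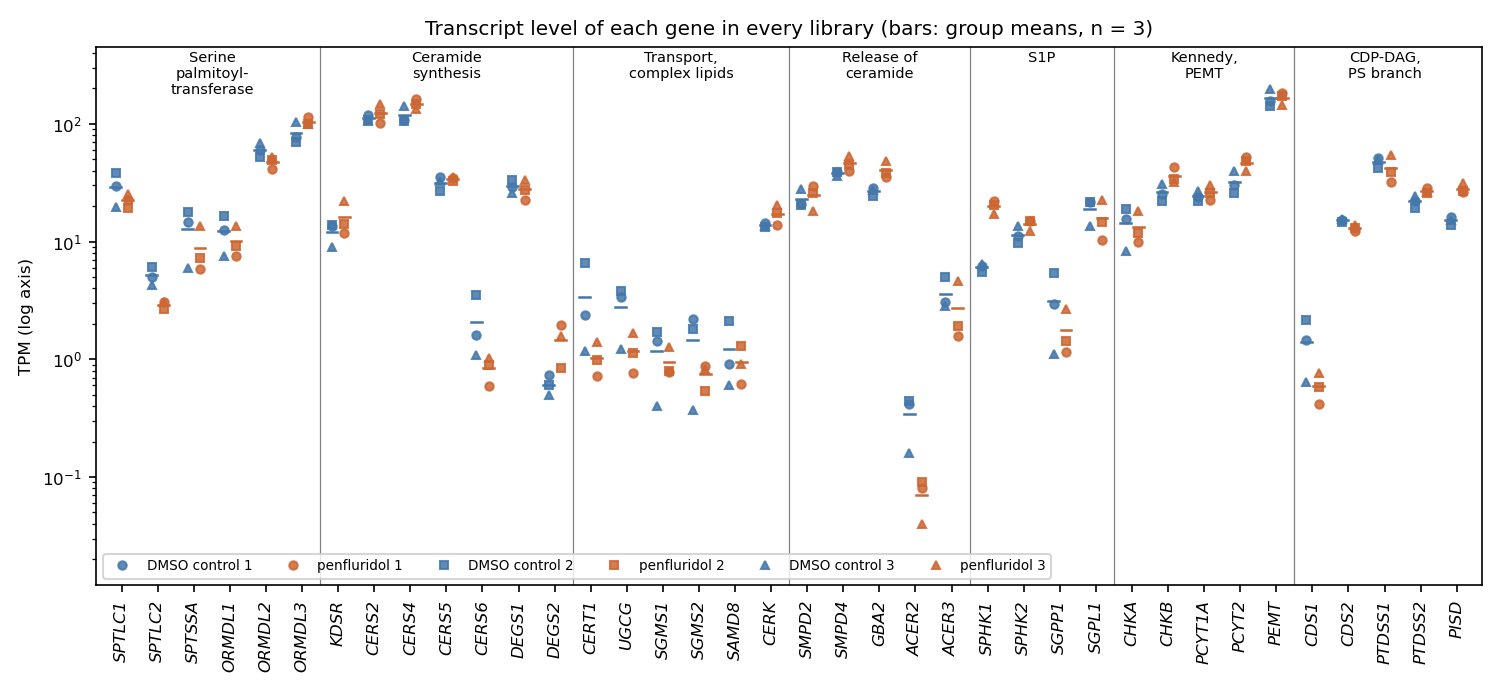
Level of each of the 38 genes in every library, in TPM on a log axis, grouped by role, with DMSO libraries in blue, penfluridol libraries in orange and short bars for the group means. PEMT, CERS4 and CERS2 were the most abundant and ACER2 the least, and the groups separate visibly for SPHK1 and PISD.

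The libraries differed along transcript GC content, and this touches every value below. Over the 37 genes the log2 fold change increased with GC content, with Pearson's r of 0.80 and Spearman's rho of 0.80, a description across genes that share the same 6 libraries. All 12 genes with a GC content under 45% had a negative log2 fold change (median -0.43), and all 13 over 55% had a positive one (median 0.34). The 3 called genes were all among these 13, and 962 of all 4701 genes tested over 55% GC were called higher. Over all genes tested the fold change was positive in 322 of 2936 genes under 45% GC and in 3557 of 4701 over 55%. The same order appeared inside the DMSO group. DMSO 3 minus the mean of DMSO 1 and 2, in log2(TPM + 1), had an r of 0.79 with GC content over the 37 genes, so DMSO 3 resembled the penfluridol libraries in this respect. It had the lowest level among the DMSO libraries in 20 of the 37 genes and the highest in 12. Over all genes tested DMSO 3 correlated with the penfluridol libraries at 0.945 to 0.955 in log2(TPM + 1), and DMSO 1 and 2 did so at 0.895 to 0.93.

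Each call was therefore set beside 2 other fits. With every library's smooth trend along GC content and transcript length removed, SPHK1, PISD and GBA2 were still called higher, ORMDL1 and KDSR joined them, and none was called lower. The background of that fit was 10.1% higher and 8.93% lower, and 14 of the 37 log2 fold changes changed sign. Without DMSO 3 the calls were 7 higher (CERS4, CHKB, GBA2, ORMDL3, PCYT2, PISD and SPHK1) and 5 lower (CERT1, SGMS2, SPTLC1, SPTLC2 and UGCG), where 14.1% of all genes were called higher and 19.4% lower.

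**Figure D2:**
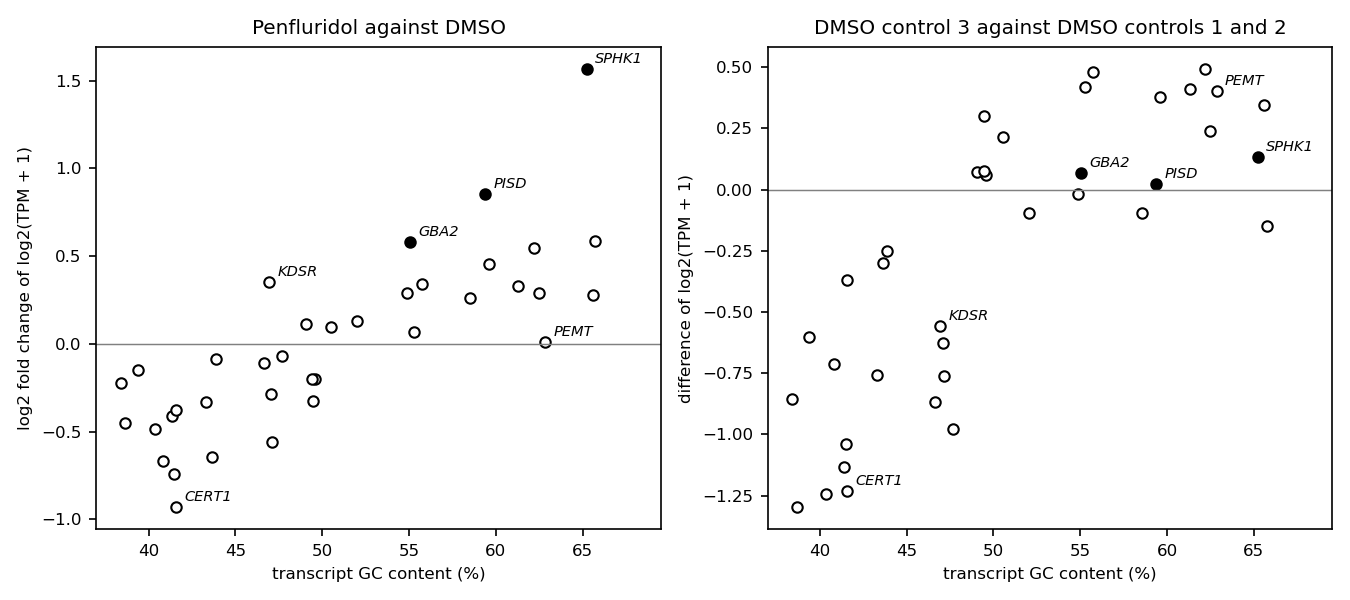
Each point is one of the 37 genes, placed by the GC content of its transcripts in percent, with filled points for SPHK1, PISD and GBA2. Left, log2 fold change of penfluridol against DMSO; right, DMSO 3 against the mean of DMSO 1 and 2, both on the log2(TPM + 1) scale, and in both panels genes of low GC content lie lowest.

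The question for each role group is which of its transcripts differed after exposure to the drug. Of all 37 genes SPHK1 had the largest log2 fold change. SPHK1, sphingosine kinase 1 (ENSG00000176170, GRCh38 chromosome 17 from 76376584 to 76387860), was at 6.22, 5.50 and 6.51 TPM in DMSO 1, 2 and 3, against 22.2, 20.6 and 17.3 TPM in penfluridol 1, 2 and 3. Every penfluridol library lay far above every DMSO library. SPHK1 rose 3.30-fold on the means, which were 6.08 ± 0.520 and 20.03 ± 2.49 TPM (SD, n = 3 each), and its log2 fold change on the log2(TPM + 1) scale was 1.57 (SE 0.16, adjusted p = 0.00289, limma). It stayed called with any single library left out (adjusted p from 0.00336 to 0.0344), and its log2 fold change was 1.18 with the GC and length trend removed (adjusted p = 0.00185). Its exons share 59 bases with those of PRPSAP1 on the opposite strand, at 25.5 ± 2.18 TPM in DMSO and 29.1 ± 9.38 TPM under penfluridol.

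SPHK2, the paralogous kinase found largely in the nucleus and mitochondria, was at 11.2, 9.70 and 13.5 TPM in DMSO, against 15.05, 14.99 and 12.3 TPM under penfluridol. The groups overlapped, and it was not called (log2 fold change 0.28, 95% interval -0.14 to 0.70). Its exons overlap those of RPL18, a ribosomal protein gene on the opposite strand at a mean of 4312 TPM, over 246 bases, and whether the libraries keep strand is not stated, so its level is uncertain. As a share of the summed TPM of both kinases, SPHK1 was 35.6%, 36.2% and 32.5% in DMSO and 59.6%, 57.9% and 58.6% with penfluridol. In these TPM values SPHK1 went from the minor to the major sphingosine kinase transcript, a description with no test of the difference between the paralogs.

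The enzymes that remove sphingosine 1-phosphate did not pass. The lyase SGPL1, which cleaves it irreversibly, was at 21.5, 21.9 and 13.7 TPM in DMSO, against 10.3, 14.5 and 22.7 TPM under penfluridol (log2 fold change -0.29, 95% interval -1.01 to 0.44). The phosphatase SGPP1, which returns it to sphingosine, was at 2.94, 5.38 and 1.12 TPM and at 1.15, 1.43 and 2.70 TPM (log2 fold change -0.49, 95% interval -1.51 to 0.53). Both pairs of groups overlapped, and the intervals leave room for sizeable changes in either direction.

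To show the DNA beside these values, a stretch before a RefSeq start site is printed for each of the 3 called genes. It is the longest stretch outside annotated exons in the RefSeq windows of 250 bases upstream of each start (GRCh38.p14). Both strands were searched for 6 motifs, and matches are in capitals. The AP-1 motif TGANTCA was found in SPHK1 and PISD. It occurred in 6.57% of all 35116 such windows and in 4 of the 48 windows of the 32 genes of this set that have one, in SGMS2 besides these. None of the GC box GGGCGG, the E-box CACGTG, the amino acid response core TGATGNAA, the SREBP motif TCACNCCAC and the CCAAT motif was found in the stretches printed. Outside these stretches, windows of all 3 genes held a GC box. The GC box occurred in 39 of the 48 windows of this set (81.2%), beside 42.6% of all windows. Counted by gene, 31 of the 32 genes had at least 1 window with it. A window of PISD outside its printed stretch held a CCAAT motif (11240 of all windows). A match is a description of letters, not evidence of binding.
SPHK1, chr17:76385170-76385277, plus strand: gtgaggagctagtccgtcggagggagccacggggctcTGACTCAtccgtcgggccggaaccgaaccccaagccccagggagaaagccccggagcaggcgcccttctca
PISD, chr22:31662565-31662814, minus strand: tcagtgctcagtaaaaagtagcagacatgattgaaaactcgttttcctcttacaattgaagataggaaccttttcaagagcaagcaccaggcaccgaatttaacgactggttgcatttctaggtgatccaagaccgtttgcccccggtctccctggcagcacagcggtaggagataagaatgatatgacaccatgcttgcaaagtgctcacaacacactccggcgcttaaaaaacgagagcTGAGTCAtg
GBA2, chr9:35749409-35749478, minus strand: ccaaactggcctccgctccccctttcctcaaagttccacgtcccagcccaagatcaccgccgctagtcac
The SPHK1 match starts 71 bases and the PISD match 9 bases before the respective start. SPHK1 has 3 and PISD 2 RefSeq starts, and the table of levels does not say which was used in these cells.

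**Figure D3:**
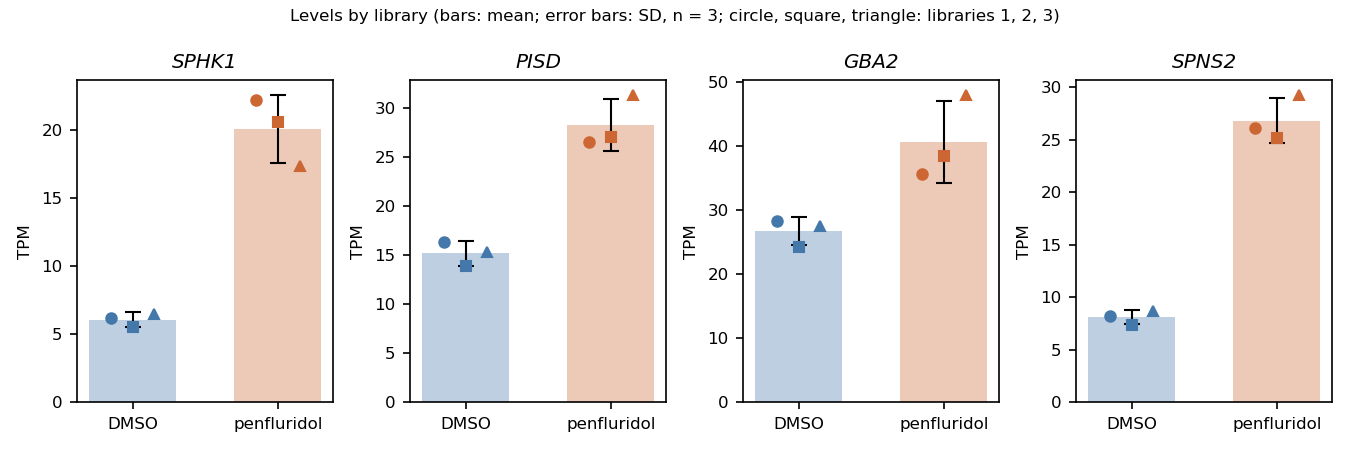
Levels in TPM of SPHK1, PISD, GBA2 and the sphingosine 1-phosphate exporter gene SPNS2 in each library, with bars for the mean and error bars for the SD (n = 3 per group). In all 4 genes the penfluridol libraries lie above the DMSO libraries, by the widest margin in SPHK1 and SPNS2.

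Among genes that release ceramide or sphingosine, GBA2 was called higher. GBA2 (ENSG00000070610, chromosome 9 from 35736866 to 35749228) cleaves glucosylceramide outside the lysosome. It was at 28.4, 24.2 and 27.5 TPM in DMSO, against 35.6, 38.5 and 47.9 TPM under penfluridol. All penfluridol values were higher, with penfluridol 3 the highest. GBA2 rose from 26.7 ± 2.21 to 40.7 ± 6.46 TPM (log2 fold change 0.58 with an SE of 0.15, adjusted p = 0.0493), just inside the threshold. The call held without DMSO 3 (adjusted p = 0.0354) and was lost with any other library left out, up to an adjusted p of 0.163. Its exons share 139 bases with those of CREB3 on the opposite strand, which went from 130 ± 21.9 to 333 ± 64.0 TPM (adjusted p = 0.00621), and the part of those reads in the GBA2 values was not tested.

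The other genes of this group were not called. SMPD4, a neutral sphingomyelinase, was at 38.7, 39.2 and 36.4 TPM in DMSO, against 39.97, 44.7 and 53.8 TPM under penfluridol, without overlap (log2 fold change 0.26, adjusted p = 0.234), and it shares 815 exonic bases with the opposite-strand gene MZT2B at a mean of 1170 TPM. SMPD2, another neutral sphingomyelinase, had group means of 23.2 ± 4.23 and 24.7 ± 5.92 TPM. The alkaline ceramidase ACER3 had 3.62 ± 1.17 and 2.71 ± 1.66 TPM. ACER2, the Golgi ceramidase, was the gene below the level filter, at 0.42, 0.44 and 0.16 TPM in DMSO, against 0.08, 0.09 and 0.04 TPM under penfluridol. The groups did not overlap, but it was not called when genes of all levels were fitted (adjusted p = 0.152).

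Serine palmitoyltransferase and its regulators showed no call. SPTLC2, a catalytic subunit, was at 5.01, 6.14 and 4.32 TPM in DMSO, against 3.06, 2.65 and 3.04 TPM under penfluridol. All 3 penfluridol values were lower, yet it missed the threshold (log2 fold change -0.64, SE 0.20, adjusted p = 0.0795). With the GC and length trend removed its log2 fold change was -0.12. SPTLC1, the partner subunit, was at 29.9, 38.4 and 19.6 TPM in DMSO, against 22.5, 19.4 and 25.2 TPM under penfluridol, with overlap. SPTSSA, the small activating subunit, ranged from 6.02 to 17.9 TPM in DMSO and from 5.80 to 13.6 TPM under penfluridol.

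The ORMDL proteins hold serine palmitoyltransferase in check when ceramide is plentiful. ORMDL3 was the most abundant of them and of its role group, at 77.3, 69.6 and 102.8 TPM in DMSO, against 113.8, 100.01 and 100.1 TPM under penfluridol. DMSO 3 lay inside the penfluridol range, and ORMDL3 was not called (log2 fold change 0.34, 95% interval -0.04 to 0.73, adjusted p = 0.185). ORMDL2 was at 59.6, 51.8 and 68.7 TPM against 41.1, 49.2 and 52.7 TPM (log2 fold change -0.33, adjusted p = 0.185). ORMDL2 shares 920 exonic bases with the opposite-strand gene DNAJC14, at a mean of 24.9 TPM, so its level is uncertain. ORMDL1 was at 12.7, 16.4 and 7.53 TPM against 7.52, 9.17 and 13.7 TPM. Their summed level was 155.5 ± 21.2 TPM in DMSO and 162 ± 4.10 TPM under penfluridol, while the share of ORMDL3 in it went from 53.2% ± 3.70 to 64.5% ± 5.09 and that of ORMDL2 from 38.6% ± 1.15 to 29.3% ± 3.50 (SD, n = 3). Neither share overlapped between the groups, but the shares were not tested and none of the 3 genes was called in this fit. With the GC and length trend removed the log2 fold changes were 0.14 for ORMDL3 and -0.21 for ORMDL2, both not called, and 0.50 for ORMDL1, which was called higher (adjusted p = 0.0443).

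**Figure D4:**
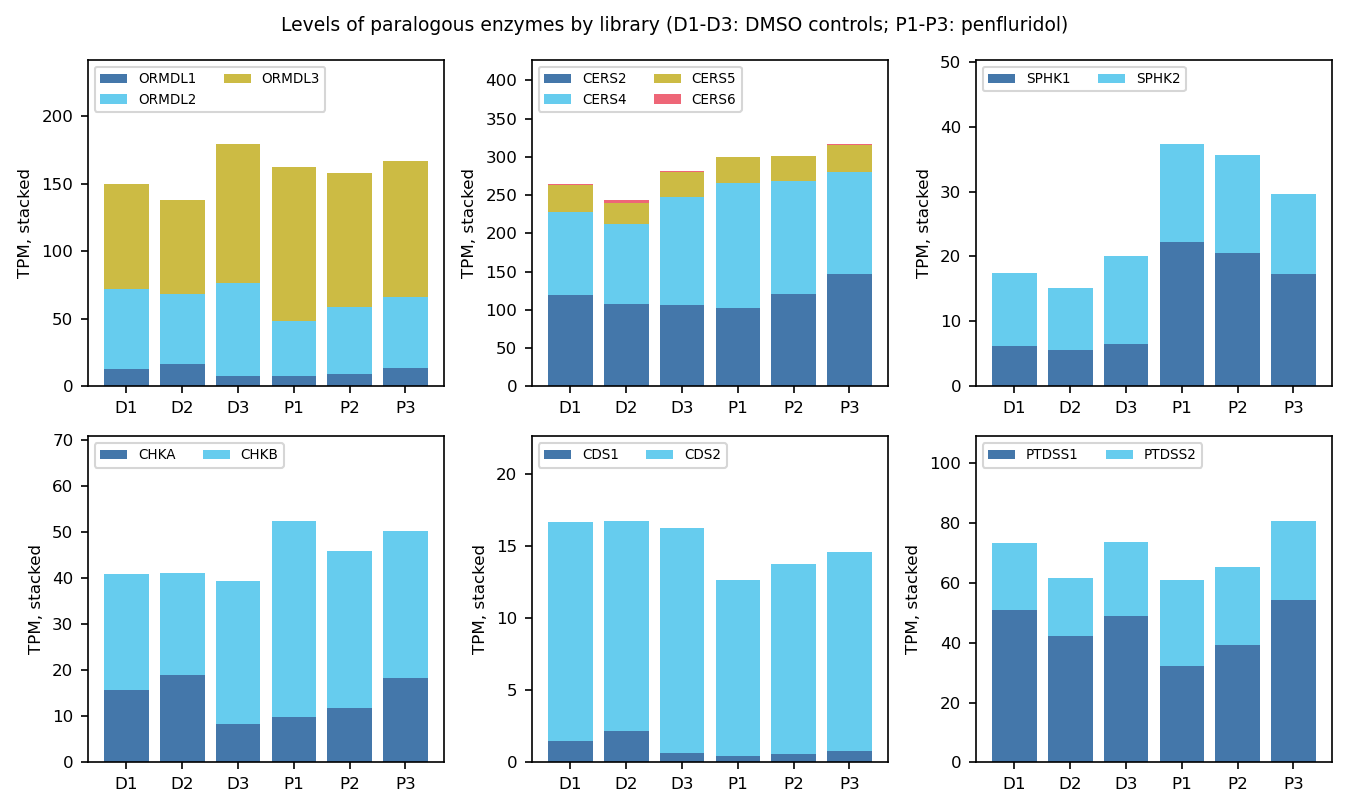
Stacked levels in TPM of paralogous enzymes in each library, D1 to D3 for DMSO and P1 to P3 for penfluridol. SPHK1 makes up most of the difference in the sphingosine kinase sum, and ORMDL3 takes a larger part of the ORMDL sum in the penfluridol libraries.

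Steps from the first sphingoid base to ceramide showed no call either. CERS4 and CERS2, ceramide synthases that differ in the fatty acids they prefer, were the most abundant sphingolipid genes of the set. CERS4 was at 107.85, 104.8 and 141.6 TPM in DMSO, against 163.0, 147.1 and 133.8 TPM under penfluridol, where DMSO 3 fell among the penfluridol values (log2 fold change 0.33, adjusted p = 0.171). CERS2, which makes very long chain ceramides, was at 119.8, 107.6 and 106.3 TPM against 102.2, 120.85 and 146.3 TPM (log2 fold change 0.13, 95% interval -0.22 to 0.49). CERS5 was near its DMSO level, at 31.6 ± 4.02 and 34.1 ± 1.28 TPM.

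CERS6, which makes ceramides of shorter chains, was scarce, at 1.60, 3.51 and 1.09 TPM in DMSO, against 0.59, 0.90 and 1.03 TPM under penfluridol. All its penfluridol values were lower, but the gap to DMSO 3 was small and it was not called (adjusted p = 0.1995). The 4 ceramide synthases of this set summed to 263 ± 19.2 TPM in DMSO and 306 ± 8.85 TPM under penfluridol, with no overlap, but the sum was not tested. CERS1, outside the set and this sum, had 4.76 ± 0.533 and 7.43 ± 0.756 TPM. With the GC and length trend removed the log2 fold changes were 0.03 for CERS4, 0.09 for CERS2, 0.23 for CERS5 and -0.12 for CERS6, none of them called.

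KDSR, the reductase that acts after serine palmitoyltransferase, was at 13.7, 13.9 and 9.03 TPM in DMSO, against 11.8, 14.2 and 22.2 TPM under penfluridol. It was not called as deposited (log2 fold change 0.35, adjusted p = 0.382) but was with the GC and length trend removed (log2 fold change 0.63, adjusted p = 0.0209). DEGS1, the main ceramide desaturase, had 29.4 ± 3.78 and 27.8 ± 5.39 TPM. DEGS2, a bifunctional desaturase and hydroxylase, was at 0.73, 0.60 and 0.50 TPM in DMSO, against 1.95, 0.84 and 1.59 TPM under penfluridol, higher in all 3 but not called (adjusted p = 0.167). DEGS2 shares 280 exonic bases with the opposite-strand gene EVL, at a mean of 31.9 TPM, so its low level is uncertain.

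The transporter of ceramide and the enzymes that use it were mostly of low level. CERT1, which carries ceramide from the endoplasmic reticulum to the Golgi for sphingomyelin synthesis, was at 2.40, 6.64 and 1.17 TPM in DMSO, against 0.72, 0.98 and 1.39 TPM under penfluridol. UGCG, the glucosylceramide synthase, was at 3.38, 3.81 and 1.23 TPM against 0.76, 1.14 and 1.66 TPM. In both genes DMSO 3 lay within the penfluridol range and the other DMSO libraries lay above it. CERT1 (log2 fold change -0.93, SE 0.46, adjusted p = 0.196) and UGCG (-0.74, SE 0.35, adjusted p = 0.186) had the most negative fold changes of the set, and neither was called. Without DMSO 3 both were called lower, at log2 fold changes of -1.34 and -1.09 (adjusted p = 0.0339 and 0.0228), whereas removing the GC and length trend brought them to -0.34 and -0.11.

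The sphingomyelin synthases SGMS1 and SGMS2 and their relative SAMD8, which makes ceramide phosphoethanolamine, were each at 0.37 to 2.20 TPM across the libraries. Their sum was 4.54, 5.63 and 1.38 TPM in DMSO and 2.27, 2.63 and 3.01 TPM under penfluridol, so DMSO 3 was the lowest library of all. CERK, ceramide kinase, was the most abundant gene of this group, at 14.3, 13.3 and 13.6 TPM in DMSO, against 13.8, 17.6 and 20.3 TPM under penfluridol (log2 fold change 0.29, 95% interval -0.12 to 0.70).

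Of the phospholipid genes, PISD was called. PISD (ENSG00000241878, chromosome 22 from 31618491 to 31662432) makes phosphatidylethanolamine in the inner mitochondrial membrane. It was at 16.3, 13.9 and 15.3 TPM in DMSO, against 26.5, 27.0 and 31.3 TPM under penfluridol. The groups lay well apart, and DMSO 3 was in the middle of its own group. PISD rose from 15.2 ± 1.24 to 28.2 ± 2.63 TPM, 1.86-fold on the means (log2 fold change 0.85, SE 0.14, adjusted p = 0.0116). The call was lost without DMSO 1 (adjusted p = 0.0542) and without penfluridol 2 (0.0766), at log2 fold changes of 0.91 and 0.88. Its exons share 96 bases with the opposite-strand gene SFI1, at 7.43 ± 0.0851 and 10.2 ± 0.924 TPM, and its log2 fold change was 0.54 with the GC and length trend removed (adjusted p = 0.0107).

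The rest of the phosphatidylserine and CDP-diacylglycerol branch was not called. PTDSS1, which makes phosphatidylserine from phosphatidylcholine, was the most abundant of the branch, at 51.0, 42.2 and 48.9 TPM in DMSO, against 32.3, 39.3 and 54.2 TPM under penfluridol (log2 fold change -0.20, 95% interval -0.67 to 0.27). PTDSS2, which uses phosphatidylethanolamine, was at 22.1, 19.2 and 24.6 TPM against 28.6, 26.0 and 26.5 TPM, higher in all 3 penfluridol libraries (log2 fold change 0.29, adjusted p = 0.188). CDS2, a CDP-diacylglycerol synthase, was at 15.2, 14.6 and 15.6 TPM against 12.2, 13.2 and 13.8 TPM, lower in all 3 (log2 fold change -0.20, adjusted p = 0.337). Its paralog CDS1 had 1.41 ± 0.756 and 0.59 ± 0.175 TPM.

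No gene of the Kennedy pathway was called, nor was PEMT of the separate methylation route. PEMT, which methylates phosphatidylethanolamine to phosphatidylcholine, was the most abundant of all 38 genes, at 157.8, 142.9 and 198.95 TPM in DMSO, against 181.8, 173.3 and 144.8 TPM under penfluridol. Its group means were 166.6 ± 29.04 and 166.7 ± 19.4 TPM (log2 fold change 0.01, 95% interval -0.36 to 0.38). PCYT2, which activates ethanolamine, was at 30.5, 25.7 and 39.8 TPM against 52.8, 48.2 and 39.4 TPM. DMSO 3 and penfluridol 3 were alike while the other libraries lay apart (log2 fold change 0.55, SE 0.19, adjusted p = 0.103, or 0.0207 without DMSO 3). Without DMSO 3 was the only leave-out in which PCYT2 was called, the highest adjusted p being 0.271. With the GC and length trend removed PCYT2 had 0.24 and was not called (adjusted p = 0.28).

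PCYT1A, the rate-limiting enzyme of phosphatidylcholine synthesis, had 24.3 ± 2.45 and 26.2 ± 3.88 TPM (log2 fold change 0.10, 95% interval -0.27 to 0.46). The choline kinases CHKB and CHKA phosphorylate choline at the start of the pathway. CHKB was at 25.3, 22.2 and 31.1 TPM in DMSO, against 42.7, 33.99 and 32.03 TPM under penfluridol, higher in all 3 by a narrow margin (log2 fold change 0.45, adjusted p = 0.126), and it shares 2189 exonic bases with the read-through gene CHKB-CPT1B. CHKA was at 15.7, 19.0 and 8.27 TPM against 9.83, 11.9 and 18.2 TPM, with full overlap.

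**Figure D5:**
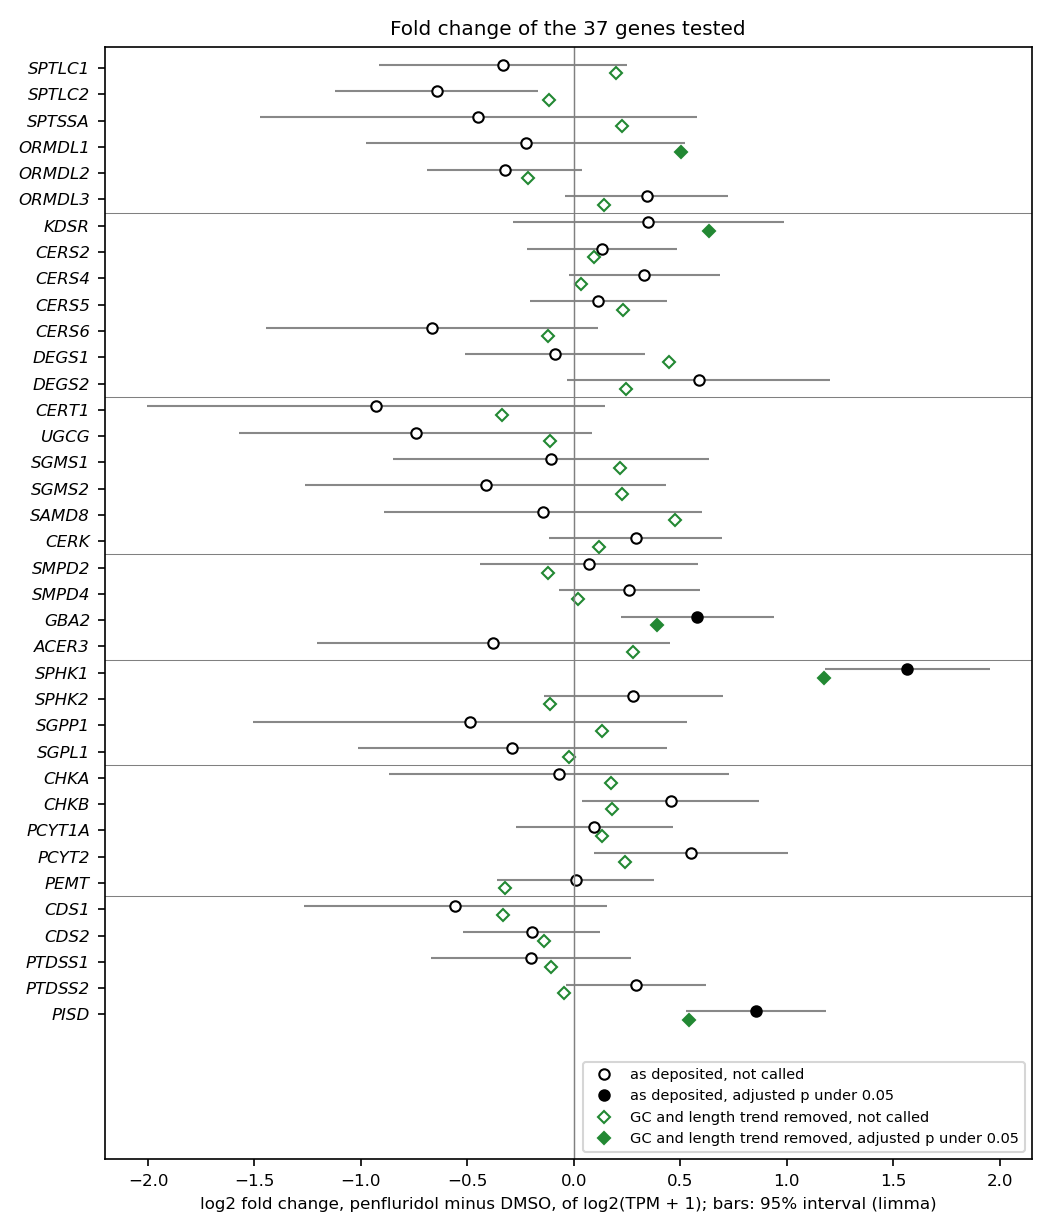
Log2 fold change of the 37 genes tested, penfluridol minus DMSO, on the log2(TPM + 1) scale, with 95% intervals from limma (circles) and the same after removal of each library's GC and length trend (diamonds), filled where the adjusted p was under 0.05. SPHK1, PISD and GBA2 are filled in both, and ORMDL1 and KDSR in the second alone.

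Other genes of sphingolipid metabolism, 49 in a second list, were read from the same fit. Of 35 tested, 7 rose and none fell (20.0% called), beside 13.2% called in either direction among all genes. SPNS2, which exports sphingosine 1-phosphate from the cell, was at 8.18, 7.37 and 8.71 TPM in DMSO, against 26.1, 25.1 and 29.2 TPM under penfluridol. It rose by 1.61 on the log2(TPM + 1) scale (SE 0.14, adjusted p = 0.00176), stayed called with any single library left out, and had 1.30 with the GC and length trend removed. SPHK1, a kinase gene that makes the phosphate, and SPNS2, which exports it, were thus both called higher. The other kinase gene, SPHK2, was not called. The receptors S1PR1 to S1PR5 ranged from 0 to 3.76 TPM. S1PR2 and S1PR5 were tested and not called (log2 fold changes 0.83 and 0.02), and S1PR1, S1PR3 and S1PR4 were below the level filter.

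Genes of lysosomal sphingolipid breakdown made up most of the other calls. The sialidase NEU1 rose from 21.4 ± 3.12 to 44.6 ± 3.48 TPM (log2 fold change 1.03 at an adjusted p of 0.00797) and lost its call without penfluridol 2 (0.0597). PSAP, the saposin precursor, had a log2 fold change of 0.91, the β-galactosidase GLB1 0.75 and the β-hexosaminidase subunit HEXA 0.61. CPTP, which transfers ceramide 1-phosphate, had 0.78. SMPD1, the acid sphingomyelinase, was the seventh, outside the rule for naming, at 0.71. Leaving out any single library kept the call of PSAP. HEXA and SMPD1 lost theirs without any library other than DMSO 3, with adjusted p-values up to 0.123 and 0.131. GLB1 did so without DMSO 1, penfluridol 2 or penfluridol 3 (up to 0.101), and CPTP without DMSO 1, penfluridol 1 or penfluridol 2 (up to 0.0813). With the GC and length trend removed the log2 fold change of HEXA was 0.52 (SE 0.17, adjusted p = 0.0722) and that of SMPD1 was 0.40 (SE 0.13, adjusted p = 0.0681), and neither was called.

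Of 47 other phospholipid genes 39 were tested, 2 rose and 1 fell (7.69% called), which is below the 13.2% of all genes. STARD10, a phospholipid transfer protein, was at 111.1, 103.0 and 148.8 TPM in DMSO, against 290.3, 257.15 and 206.8 TPM under penfluridol (log2 fold change 1.05, SE 0.18, adjusted p = 0.0144). TAFAZZIN, which remodels cardiolipin in mitochondria, was at 17.1, 15.1 and 17.7 TPM against 27.6, 27.4 and 27.5 TPM (log2 fold change 0.70, SE 0.13, adjusted p = 0.0170). LPCAT3, which inserts polyunsaturated fatty acids into phosphatidylcholine, fell from 50.5, 44.3 and 50.9 TPM to 24.7, 27.5 and 35.2 TPM (log2 fold change -0.73, SE 0.16, adjusted p = 0.0282). Groups did not overlap in any of the 3. STARD10 and TAFAZZIN lost their calls without DMSO 1, penfluridol 1 or penfluridol 2 (adjusted p up to 0.0818 and 0.106), and LPCAT3 without any of these or DMSO 2 (up to 0.138). With the GC and length trend removed LPCAT3 had -0.76 (adjusted p = 0.00821).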

How the data were processed

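RNA of Ishikawa cells was sequenced from 3 DMSO and 3 penfluridol libraries, grouped by sample title. The deposited values are TPM, which the authors computed per gene. The header names no unit, and TPM was read from column sums of 994165 to 997207. Per the submitters' processing notes, fastp, RSEM and GRCh38.p13 were used; the sources used here give neither versions nor annotation. TPM keeps no read counts, so depth is unknown. The table held 0 columns of other samples and 1 emptied line.

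Genes averaging 1 TPM or more were fitted with limma 3.58.1 (R 4.3.3) on log2(TPM + 1), with trended moderated variances and Benjamini-Hochberg adjustment. The log2(TPM + 1) scale understates changes of low genes. The model was also run on simulated data with independent noise for each gene and library. Those data lack the differences along GC content that genes share here, so they cannot show how these affect the calls. GC content, length and positions came from GENCODE release 29 (GRCh38; 12112 of the genes tested and all 37 tested members matched). The trend fit used natural splines with 5 degrees of freedom for each. Upstream sequences came from RefSeq (GRCh38.p14; 32 members matched). Exon overlaps were counted on either strand, since the libraries' strandedness is not stated.

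The members, lists and tests were chosen with earlier results of these data known. All members are named. Of the other pathway genes, the called genes with the smallest p were named, at most 6 per list and direction.

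Libraries of a group correlated at 0.93 to 0.982 in log2(TPM + 1) and were kept separate.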

Additional observations from a re-analysis of the deposited data

How the results depend on the processing

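With all 6 libraries, 3 of the members were called higher and 0 lower, 9 and 1 of the other pathway genes, and 1190 and 425 of all genes. The directions and calls of the members held with a pseudocount of 0.1 TPM. The call of GBA2 was lost with median-of-ratios scaling (adjusted p = 0.0542), without a filter on low TPM (0.0921) and without a variance trend (0.0816). The strict filter of 5 TPM in at least 3 libraries left 26 members and the same 3 calls. With the GC and length trend removed, 5 members were called higher, 5 other pathway genes lower and 1081 of all genes lower. The other pathway genes called lower numbered 3 with the strict filter, 4 with median-of-ratios scaling, 0 with no filter, 0 with no variance trend and 2 with a pseudocount of 0.1, and all genes called lower numbered 718, 194 and 255 with median-of-ratios scaling, no filter and no variance trend. Leaving out each library in turn gave 1 to 7 members higher and 0 to 5 lower, 2 to 11 other pathway genes higher and 0 to 14 lower, and 214 to 1732 of all genes higher and 42 to 2380 lower. The highest counts came without DMSO 3, which among these libraries is the one nearest to the penfluridol group.

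Removing the GC and length trend turned the log2 fold change to 0.20 for SPTLC1, 0.22 for SPTSSA and for SGMS2, 0.50 for ORMDL1, 0.45 for DEGS1, 0.21 for SGMS1, 0.48 for SAMD8, 0.28 for ACER3, 0.13 for SGPP1 and 0.18 for CHKA, and to -0.12 for SMPD2, -0.11 for SPHK2, -0.32 for PEMT and -0.047 for PTDSS2. With single libraries left out, the sign changed within -0.51 to 0.0056 for ORMDL1, -0.22 to 0.050 for DEGS1, -0.078 to 0.26 for SMPD2, -0.40 to 0.16 for CHKA, -0.011 to 0.19 for PCYT1A and -0.095 to 0.14 for PEMT, none of them called. The cause was not tested.

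The labels do not say whether same-numbered libraries belong together. Deviations from the group means of same-numbered libraries correlated at -0.00807, -0.00607 and -0.348, and DMSO 3 correlated best with penfluridol 1 (0.32). With 3 libraries per group and differences along GC content among them, these correlations cannot decide whether the libraries were paired. With the replicate block, 0 members were called higher (adjusted p = 0.0632 for SPHK1, 0.112 for PISD and 0.179 for GBA2), 1 other pathway gene was called higher and 0 lower, and 62 and 12 of all genes were called. Depth is unknown, so counting error could not be given.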

Other observations

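Among the epithelial markers, KRT8 had a log2 fold change of -0.84 and was called lower (1988 ± 231 and 1109 ± 86.1 TPM, limma adjusted p = 0.00903), but not without DMSO 1 (0.0526) or penfluridol 2 (0.058). SOX17, a transcription factor, was called higher at 0.73 (19.98 ± 2.38 and 33.98 ± 6.18 TPM, adjusted p = 0.0355), a call that of the 6 leave-outs held without DMSO 3 alone (0.0332 against up to 0.105). With the GC and length trend removed SOX17 had 0.43 and was not called (adjusted p = 0.0698), and KRT8 had -1.07 (0.0029). EPCAM was at 214, 246 and 90.7 TPM in DMSO, against 69.9, 82.1 and 114 TPM under penfluridol, so DMSO 3 lay within the penfluridol range, and it was not called (adjusted p = 0.134).

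Of the 3 genes of very long chain fatty acid elongation among the other sphingolipid genes, HACD3, ELOVL1 and TECR, none was called with all 6 libraries and the values as deposited. The dehydratase HACD3 was at 41.0, 49.5 and 20.9 TPM in DMSO, against 9.96, 15.2 and 19.6 TPM under penfluridol, without overlap (log2 fold change -1.22, SE 0.36, adjusted p = 0.0662). It was called lower with the GC and length trend removed (-0.68, adjusted p = 0.0213) and without DMSO 3 (-1.58, 0.00785), the highest adjusted p of the 6 leave-outs being 0.199. The elongase ELOVL1 and the reductase TECR had log2 fold changes of -0.01 and 0.14.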
